A study of Homo sapiens with 4 samples.

Results

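The well-read ZNF genes are the zinc finger genes with a ZNF symbol and a number that averaged at least 10 raw reads over 4 RNA-sequencing libraries of human ovarian cancer cells. They were chosen by symbol and by that mean, and they are 54 of the 537 rows with such a symbol and of 25737 gene rows in all. SKOV-3 is an established human ovarian cancer cell line, and all 4 libraries carry its label. The RAME group comprised 2 libraries from cells given 40 µM rosmarinic acid methyl ester, a derivative of the plant phenol rosmarinic acid, for 24 h. The DMSO group comprised 2 libraries from cells given the solvent alone. The comparison asks which transcripts differ in level after RAME. Libraries were made from poly(A) RNA with a 3′ kit, in which a read marks the end of a transcript, and levels were therefore not divided by transcript length.

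Zinc finger proteins of the C2H2 type carry short repeats in which cysteines and histidines hold a zinc ion, and arrays of these fingers commonly read DNA sequence. Many human members also carry a KRAB box, which recruits TRIM28 and, through it, the histone methyltransferase SETDB1 to silence chromatin, often at repeats. Others have a few fingers only and work as promoter activators, co-regulator subunits, RNA-binding proteins or mitotic factors.

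The first finger of 5 members that differed between the groups is shown to give the repeat that names the family and how it varies. Each stretch runs 5′ to 3′ along the coding strand of the longest GENCODE 29 coding sequence (GRCh38), and capitals mark the codons of the zinc-holding cysteines and histidines. The stretches cover coding bases 448 to 510 of ZNF189 (chromosome 9, plus strand), 3202 to 3270 of ZNF318 (chromosome 6, minus strand), 13 to 75 of ZNF664 (chromosome 12, plus strand), 715 to 783 of ZNF143 (chromosome 11, plus strand) and 118 to 183 of ZNF207 (chromosome 17, plus strand). They were chosen after the results were seen.
ZNF189: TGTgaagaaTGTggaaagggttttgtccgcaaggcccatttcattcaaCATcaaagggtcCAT
ZNF318: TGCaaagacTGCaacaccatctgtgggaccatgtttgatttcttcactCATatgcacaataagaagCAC
ZNF664: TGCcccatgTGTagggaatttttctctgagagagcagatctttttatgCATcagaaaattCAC
ZNF143: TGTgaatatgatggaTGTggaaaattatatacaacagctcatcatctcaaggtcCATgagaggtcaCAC
ZNF207: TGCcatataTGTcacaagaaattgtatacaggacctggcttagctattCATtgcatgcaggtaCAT
The distance between the cysteines or between the histidines differed among some of the fingers, while ZNF189 and ZNF664 had the same spacing. The stretch from cysteine to histidine was fixed at 12 codons by the search pattern. ZNF143 had 4 codons between its cysteines, which the search pattern allowed along with 2 or 3. By the same pattern the coding sequence held 16 fingers in ZNF189, 9 in ZNF664, 7 in ZNF143, 2 in ZNF318 and 1 in ZNF207.

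The RAME libraries held 1441575 and 1777782 gene reads and the DMSO libraries 2306379 and 2543566, with 8388 and 8497 genes detected against 8708 and 8052. Since the DMSO libraries were deeper, a mean over raw reads leans towards genes that are higher in DMSO. Replicate libraries differed beyond sampling noise (chi-square per degree of freedom 15.4 over 5041 genes for RAME and 28.8 over 5416 genes for DMSO). Whether they were separate cultures is not stated, and the p-values then reflect only the spread among these 4 samples, which may be technical. With 2 libraries on each side the smallest two-sided p of an exact permutation test is 0.333, and each gene was therefore tested with edgeR, which borrows the spread from the whole table. Of 9 epithelial and SKOV-3 markers, EPCAM, ERBB2, KRT7 and KRT19 were at 0 reads in every library, which goes against the label, and the summed level of the list was 18.0 and 8.09 CPM (reads scaled to a common library size) in RAME against 9.18 and 8.42 CPM in DMSO. PAX8 gave most of it, with 24 and 9 reads in RAME against 19 and 18 in DMSO. Of 5 fibroblast markers, 1 was at 0 reads, and the list summed to 13.7 and 17.3 CPM in RAME against 21.7 and 25.7 CPM in DMSO. The leukocyte, endothelial and neuronal lists stayed at or under 2.68 CPM in each library. The part of cell identity or of other cells in the results was not tested, and in bulk samples fewer cells of a type and less RNA per cell cannot be told apart.

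ZNF207, ZNF638, ZNF664, ZNF512B, ZNF281, ZNF518A and ZNF143 were called lower in the RAME libraries than in the DMSO libraries. ZNF318, ZNF703 and ZNF189 were called higher. The levels are relative to all reads and are not amounts per cell, and not all calls held when the fit was changed. Of the 54 members 53 had enough reads to be tested, and at an adjusted p under 0.05 (edgeR quasi-likelihood test, Benjamini-Hochberg adjustment over all 4517 genes tested) 3 were higher, 7 were lower and 43 did not pass. Over all genes tested, 292 (6.46%) were higher and 320 (7.08%) were lower. Over the 4330 tested genes that averaged at least 10 reads the shares were 6.1% higher and 7.34% lower, beside 5.66% and 13.2% of the members. With counts this small the shares are a description and mark nothing particular to the members. The median log2 fold change, RAME over DMSO, was -0.08 for the tested members, 0.01 for all genes tested and -0.01 for those averaging at least 10 reads. The tested members ranged from -2.11 to 3.36, with 24 above and 29 below 0.

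Both RAME libraries lay above both DMSO libraries for 13 of the 53 tested members and below both for 19. Over all genes tested such separation was seen for 31.1% on the high side and 29.5% on the low side. The count filter asked for 4.9 CPM in at least 2 libraries. ZNF189 passed this cutoff in the RAME libraries only and ZNF319 in the DMSO libraries only. The other 51 tested members passed it in at least 1 library of each group. For some of these, only 1 library of a group passed, as for ZNF746 and ZNF654 in RAME and ZNF414 in DMSO. The place of such members in the test rested on the group where they were higher. The number of members called depended on the libraries, with 4 called without RAME 1, 6 without DMSO 1 and 17 without DMSO 2. The whole table moved the same way, with 6% of all genes tested called without RAME 1, 7.81% without DMSO 1 and 20% without DMSO 2, beside 13.5% with all 4 libraries. The calls of ZNF638, ZNF664 and ZNF512B held under each of the 13 refits of the table (other scalings, filters and tools, a replicate block, thinned or crossed libraries, and leaving out each library in turn). These refits cannot tell reads of ZNF512B from those of its antisense neighbour UCKL1-AS1, whose row held nearly the same counts.

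**Figure D1:**
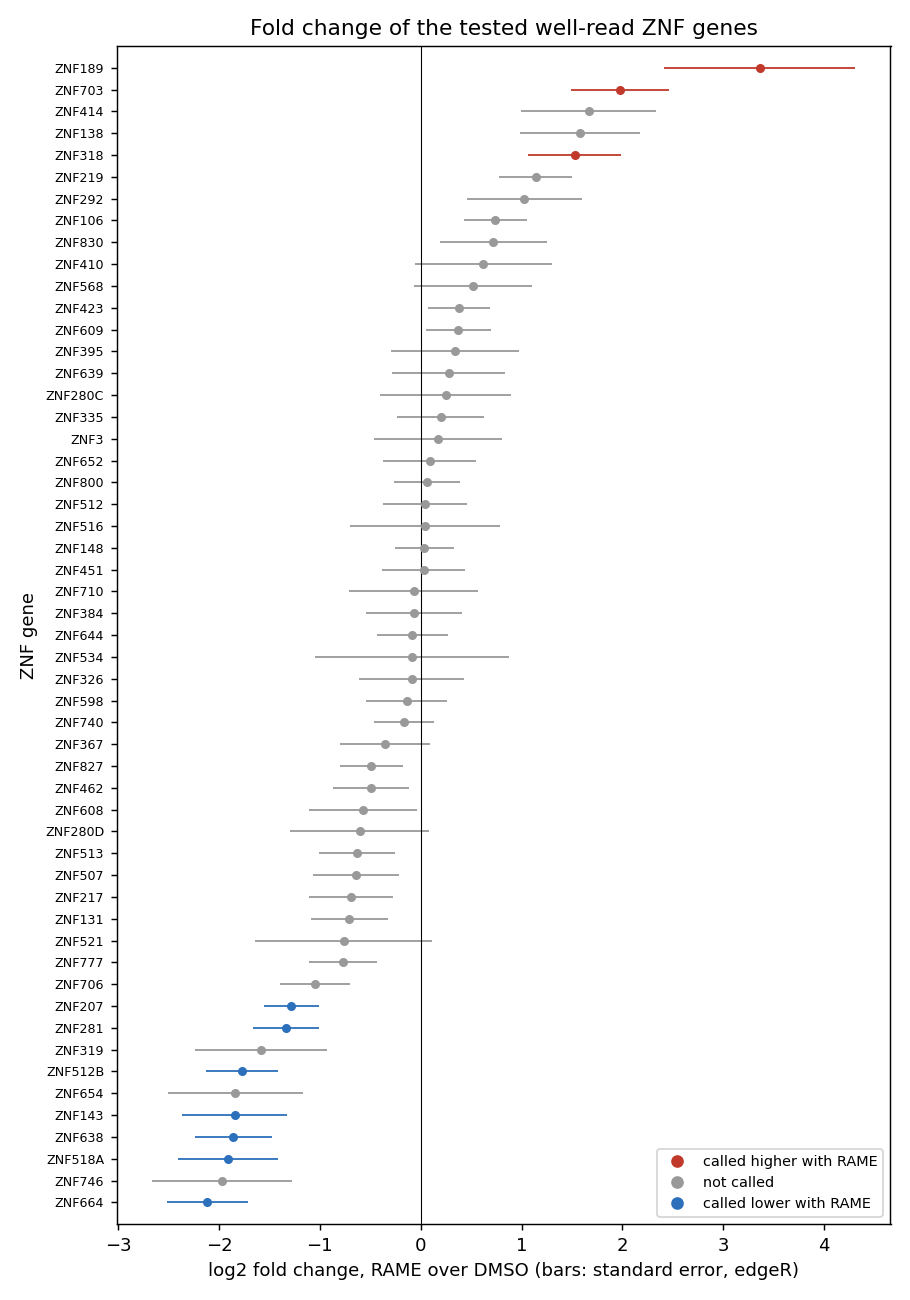
Log2 fold change, RAME over DMSO, of the 53 tested ZNF genes, with bars for the standard error and colour for the edgeR call. The 3 genes called higher lie between 1.52 and 3.36 and the 7 called lower between -2.11 and -1.28.

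The ZNF members together took 0.434% (95% exact binomial interval 0.423 to 0.445) and 0.420% (0.410 to 0.429) of the reads in the RAME libraries. In the DMSO libraries the share was 0.625% (0.615 to 0.636) and 0.587% (0.577 to 0.596). These intervals cover counting error only, as PCR copies were not told apart from separate molecules. Neither RAME interval overlapped a DMSO interval, nor did the intervals of the DMSO libraries overlap each other. The rule's mean over raw reads leans towards genes higher in DMSO, and so does the summed share of the chosen members. The shares are therefore a description and no test.

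In CPM normalized by TMM, the members summed to 4509 and 4310 in RAME against 6017 and 5715 in DMSO. The 7 called lower summed to 934 and 927 CPM in RAME against 2830 and 2367 CPM in DMSO. The 3 called higher summed to 125 and 82.0 CPM in RAME against 23.8 and 32.6 CPM in DMSO. The other 44 members summed to 3450 and 3301 CPM in RAME against 3162 and 3316 CPM in DMSO, and these ranges overlapped. The lower total in RAME was thus held by the members called lower, which the call had itself picked.

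The levels of the ZNF members were uneven. ZNF207, ZNF106, ZNF638, ZNF367 and ZNF148 held 25200 of 43065 member reads (58.5%), and 36 of 54 members had a mean under 50 CPM. ZNF207 alone took 0.0634% and 0.0510% of all reads in RAME against 0.148% and 0.149% in DMSO.

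**Figure D2:**
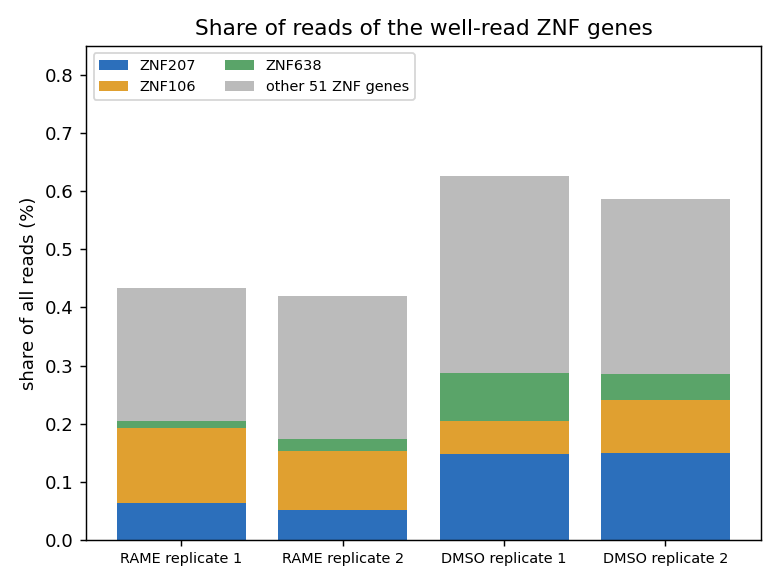
Share of all reads (%) held by ZNF207, ZNF106, ZNF638 and the other 51 ZNF genes, as stacked bars for the RAME libraries on the left and the DMSO libraries on the right. The whole bars reach 0.434% and 0.420% in RAME and 0.625% and 0.587% in DMSO.

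Among members listed for mitosis or the genome, ZNF207 encodes BuGZ, which binds microtubules and carries the checkpoint protein BUB3 to kinetochores. It was the most-read member, with 914 and 907 reads in RAME against 3418 and 3790 in DMSO. Its level was 591 ± 95.5 CPM in RAME and 1439 ± 18.2 CPM in DMSO (SD, n = 2 each), and the groups did not overlap. The log2 fold change was -1.28 (with a standard error of 0.27, edgeR adjusted p = 0.0146), a level 2.43-fold lower in RAME. Without RAME 2 the call was lost (edgeR adjusted p = 0.0756). Its locus overlaps AC005899.4 and MIR632 on the same strand in GENCODE 29, and reads shared with them cannot be told apart. Of the 2 tested members of this list 1 was lower and 0 were higher, next to 7.08% and 6.46% of all genes. ZNF367, the other, had 217 and 690 reads in RAME against 1114 and 644 in DMSO, so that the groups overlapped (log2 fold change -0.35, edgeR adjusted p = 0.633), and its value was 0.16 without RAME 1, 0.15 without DMSO 1 and -1.22 without RAME 2.

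Of 5 tested members that act on RNA or the ribosome, 1 was lower and 0 were higher, beside 7.08% lower and 6.46% higher over all genes tested. ZNF638, a nuclear RNA-binding protein with matrin-type fingers, had 178 and 361 reads in RAME against 1912 and 1114 in DMSO. Every RAME library lay below every DMSO library, though the libraries within each group also stood apart. The level averaged 168 ± 56.7 CPM in RAME and 612 ± 262 CPM in DMSO (SD, n = 2 each), a 3.63-fold lower level in RAME (log2 fold change -1.86 with a standard error of 0.38, edgeR adjusted p = 0.0138).

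ZNF106, an RNA-binding protein linked to splicing, was the second most-read member and stood on the other side. It had 1863 and 1819 reads in RAME against 1287 and 2345 in DMSO, and in CPM both RAME libraries lay above both DMSO libraries. Its log2 fold change of 0.74 did not pass (edgeR adjusted p = 0.133), but without DMSO 2 it was 1.18 and passed (edgeR adjusted p = 0.0265, and 0.0265 to 0.612 over leaving out each library). ZNF598, the ubiquitin ligase that marks collided ribosomes, had 39 and 60 reads in RAME against 81 and 93 in DMSO and did not pass (log2 fold change -0.14, edgeR adjusted p = 0.851).

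Of 6 tested ZNF genes that act at promoters, 2 were lower and 0 were higher, against the same 7.08% and 6.46% of all genes. The 6 include ZNF24, which averaged 8.75 reads and is not a member. ZNF281, which binds GC-rich promoters, had 101 and 159 reads in RAME against 582 and 456 in DMSO. The level was 82.3 ± 13.5 CPM in RAME and 209 ± 48.2 CPM in DMSO (SD, n = 2 each), with no overlap (log2 fold change -1.34 with a standard error of 0.33, edgeR adjusted p = 0.0236). The call was lost without RAME 1 and without DMSO 1. ZNF143, the activator of small nuclear RNA genes and of many other promoters, had only 10 and 19 reads in RAME against 99 and 65 in DMSO. Its level was 9.09 ± 2.66 CPM in RAME and 33.1 ± 11.6 CPM in DMSO (SD, n = 2 each), with a log2 fold change of -1.84 (with a standard error of 0.52, edgeR adjusted p = 0.0396). This call did not hold without RAME 1, RAME 2 or DMSO 1, and the antisense gene AC132192.2 overlaps its locus.

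The other promoter factors named for their level did not pass. ZNF148, known as ZBP-89, had 491 and 523 reads in RAME against 693 and 920 in DMSO (log2 fold change 0.03, edgeR adjusted p = 0.959). ZNF384, known as CIZ, had 40 and 32 reads in RAME against 46 and 79 in DMSO (log2 fold change -0.07, edgeR adjusted p = 0.947). Neither value stood apart from 0 by more than its error.

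Of 7 tested chromatin co-regulators, 1 was lower and 0 were higher, where all genes gave 7.08% and 6.46%. ZNF518A had 10 and 26 reads in RAME against 114 and 98 in DMSO. Its level of 11.1 ± 5.52 CPM in RAME lay below that of 42.5 ± 7.09 CPM in DMSO (SD, n = 2 each), without overlap (log2 fold change -1.91 with a standard error of 0.50, edgeR adjusted p = 0.0298), and the call was lost without RAME 1. Without RAME 2 its log2 fold change was -2.58. ZNF827, which recruits the NuRD complex, had 120 and 121 reads in RAME against 255 and 295 in DMSO and did not pass (log2 fold change -0.49, edgeR adjusted p = 0.316).

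ZNF217, a partner of the LSD1 and CoREST demethylase complex, had 55 and 42 reads in RAME against 103 and 156 in DMSO (log2 fold change -0.69, edgeR adjusted p = 0.286). ZNF644, a partner of the H3K9 methyltransferases G9a and GLP, had 86 and 92 reads in RAME against 127 and 180 in DMSO (log2 fold change -0.08, edgeR adjusted p = 0.905). Neither passed. ZNF592, found in chromatin complexes with ZMYND8, had 0 and 2 reads in RAME against 28 and 12 in DMSO and did not reach the filter. Its level over the group was 12.5-fold lower in RAME (95% counting interval 3.23 to 106), and in a fit without the filter its adjusted p was 0.0285 (edgeR). It reached the rule's mean through its DMSO reads, the group where it was high. These values therefore describe how it was chosen and are no support for a difference.

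Of 5 tested members that act in signalling and growth, 1 was higher and 0 were lower, against 6.46% and 7.08% of all genes. ZNF703, a co-repressor known from luminal breast cancer, had 88 and 55 reads in RAME against 31 and 29 in DMSO. The RAME libraries lay above the DMSO libraries but apart from each other, at 47.6 ± 22.4 CPM against 12.02 ± 1.29 CPM in DMSO (SD, n = 2 each). The level was 3.94-fold higher in RAME (log2 fold change 1.98 with a standard error of 0.49, edgeR adjusted p = 0.0241), and the call was lost without RAME 1. ZNF703 had 0 matches of the finger pattern.

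ZNF423, which works with SMAD proteins in BMP signalling, had 141 and 193 reads in RAME against 199 and 212 in DMSO (log2 fold change 0.38, edgeR adjusted p = 0.437). ZNF451, a SUMO ligase, had 41 and 53 reads in RAME against 67 and 81 in DMSO (log2 fold change 0.03, edgeR adjusted p = 0.971). Neither passed.

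The remaining called members belong to no role list. ZNF664 had the lowest fold change of the tested members, with 32 and 77 reads in RAME against 433 and 300 in DMSO. The level was 33.8 ± 15.1 CPM in RAME and 148 ± 46.5 CPM in DMSO (SD, n = 2 each), 4.33-fold lower in RAME (log2 fold change -2.11 with a standard error of 0.40, edgeR adjusted p = 0.0105). Without RAME 2 the log2 fold change was -2.71. The gene AC068790.8 overlaps it on the same strand. ZNF512B had 50 and 55 reads in RAME against 228 and 357 in DMSO, at 33.9 ± 3.02 CPM in RAME and 116 ± 29.4 CPM in DMSO (SD, n = 2 each). It was 3.42-fold lower in RAME (log2 fold change -1.77 with a standard error of 0.35, edgeR adjusted p = 0.0113). The row of its antisense neighbour UCKL1-AS1 held nearly the same counts, so reads of the pair cannot be told apart and the change of ZNF512B is uncertain.

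ZNF318, which in mouse governs the choice between IgM and IgD transcripts, was higher in RAME, with 65 and 69 reads in RAME against 26 and 50 in DMSO. Its level was 43.4 ± 4.95 CPM in RAME and 14.996 ± 5.87 CPM in DMSO (SD, n = 2 each; log2 fold change 1.52 with a standard error of 0.46, edgeR adjusted p = 0.0489). The p lies next to the threshold, and 7 of the 13 refits lost the call. ZNF189, a KRAB zinc finger gene, had 21 and 18 reads in RAME against 0 and 6 in DMSO. It passed the cutoff of the count filter in the RAME libraries only, the group where it was high. The level over the group was 10.4-fold higher in RAME (95% counting interval 4.39 to 30.2), and the fitted log2 fold change of 3.36 (with a standard error of 0.95, edgeR adjusted p = 0.0405) depends on the prior count. Leaving out 1 library moved that value between 2.41 (without DMSO 1) and 7.56 (without DMSO 2, where the remaining DMSO library has 0 reads). The call was lost without RAME 1 and without DMSO 1.

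**Figure D3:**
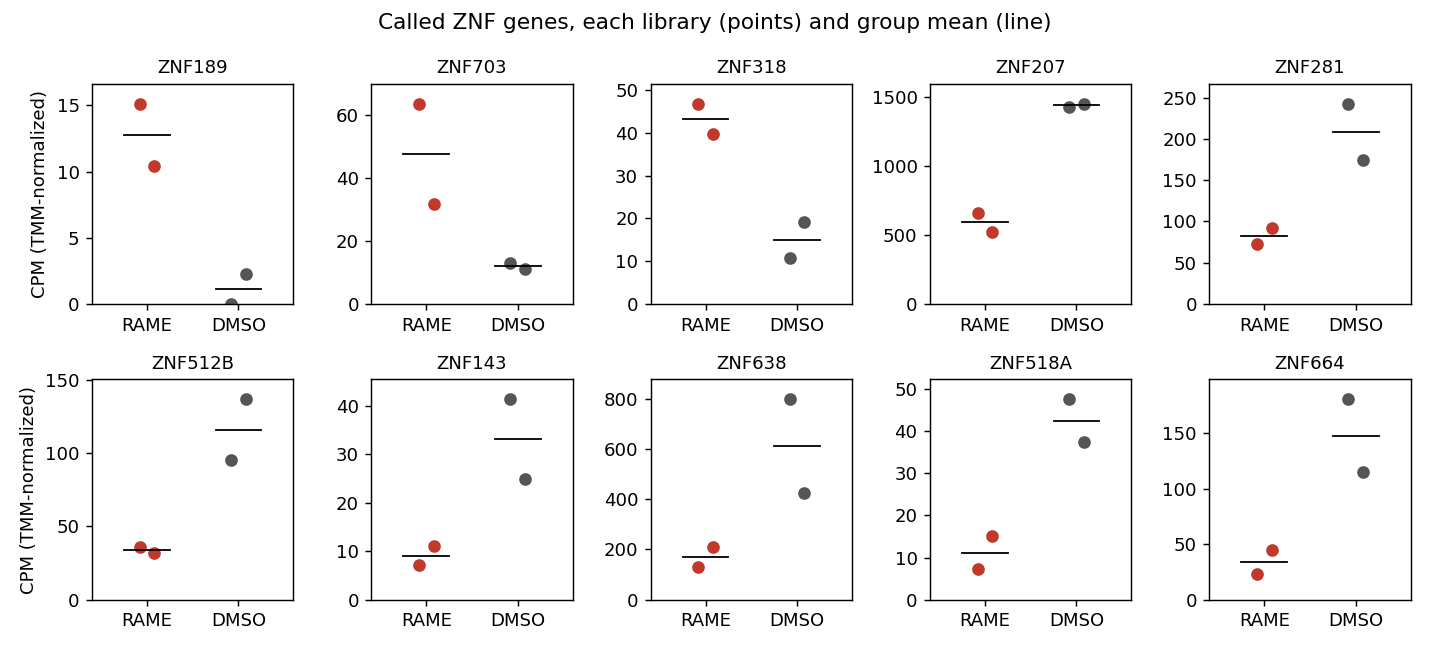
CPM of the 10 called ZNF genes with 1 point for each library, a line at the group mean and RAME to the left of DMSO; each panel has its own linear axis from 0. The groups do not overlap in any of the 10 panels, and ZNF189 is at 0 reads in DMSO 1.

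Some members outside the threshold, chosen after their values were seen, lay close to it. ZNF706 had 198 and 370 reads in RAME against 1091 and 738 in DMSO (log2 fold change -1.05, edgeR adjusted p = 0.0637). ZNF219 had 121 and 132 reads in RAME against 71 and 116 in DMSO (log2 fold change 1.14, edgeR adjusted p = 0.0579). ZNF746 had 8 and 3 reads in RAME against 38 and 34 in DMSO (log2 fold change -1.97, edgeR adjusted p = 0.0775). In all 3 the groups did not overlap in CPM, and none of them passed in the main fit. Without the filter on low counts the adjusted p (edgeR) was 0.0193 for ZNF706, 0.0813 for ZNF219 and 0.0860 for ZNF746.

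The rule's own limit fell between near-equal rows. Just inside it were ZNF534, with a mean of 10.75 reads (9 and 7 in RAME, 25 and 2 in DMSO), and ZNF592, with 10.5. Just outside were ZNF282, with a mean of 9.5 reads (12 and 1 in RAME, 11 and 14 in DMSO), and ZNF24, with 8.75 (0 and 11 in RAME, 16 and 8 in DMSO). Of 483 ZNF rows under the mean, 322 had 0 reads in every library and 161 had reads. Of these, 3 were tested and 0 were called.

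By the translated GENCODE 29 coding sequences, the well-read ZNF genes were set beside the other ZNF genes. A strict KRAB pattern matched 3 of 54 members (5.56%; ZNF189, ZNF3 and ZNF534) and 236 of the 452 other ZNF symbols with a coding sequence (52.2%). Among the other symbols that had any reads it matched 70 of 157 (44.6%). These are counts of pattern matches and not of KRAB genes, since diverged boxes, such as that of ZNF568, were not found. On chromosome 19, where KRAB genes are clustered, lay 4 members (7.41%) and 239 of the other symbols (52.9%). The median number of finger matches was 7 in members (0 to 33) and 11 in the others (0 to 36). The members were chosen by reads, so these shares describe which genes were read and carry no test.

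**Figure D4:**
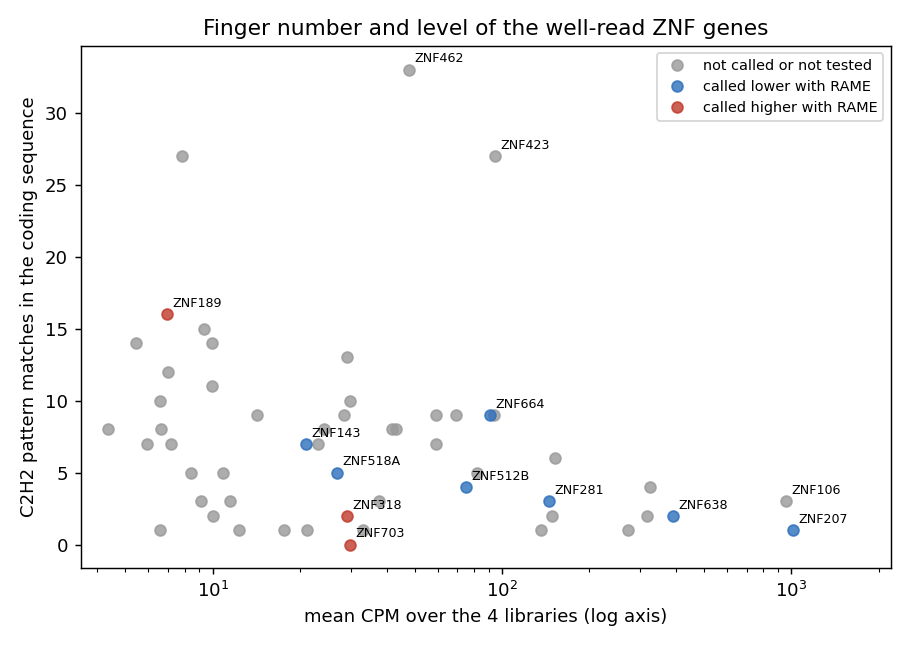
Number of C2H2 finger matches in the longest coding sequence against the mean level in CPM (log axis) for the 54 well-read ZNF genes, coloured by call. ZNF207, with 1 match, has the highest mean level, and ZNF462, with 33, the most matches.

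The partners of KRAB proteins were given as a list of their own. Of 16 co-repressor genes 12 were tested, with 0 higher and 2 lower, against 6.46% and 7.08% of all genes tested. Their median log2 fold change was -0.21, against 0.01 for all genes tested. TRIM28, the scaffold of this silencing, had 69 and 63 reads in RAME against 93 and 129 in DMSO, with no difference that passed (log2 fold change -0.04, edgeR adjusted p = 0.966). SETDB1 had 10 and 11 reads in RAME against 24 and 26 in DMSO (log2 fold change -0.56, edgeR adjusted p = 0.563). The lower genes were HDAC2, a histone deacetylase, and SMARCAD1, a chromatin remodeller. HDAC2 had 333 and 324 reads in RAME against 2096 and 1234 in DMSO (log2 fold change -1.66, edgeR adjusted p = 0.0145). Its DMSO libraries stood apart, at 874 and 473 CPM. SMARCAD1 had 7 and 2 reads in RAME against 91 and 76 in DMSO (log2 fold change -3.47, edgeR adjusted p = 0.0103). It passed the cutoff of the count filter in the DMSO libraries only, the group where it was high.

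The zinc finger families named by other prefixes gave few tested genes. Some symbols held several rows, as ZBTB12, ZBTB22 and ZFP57 did, so the totals of these families count rows and not genes. Of 50 ZBTB rows 15 were tested, with 0 higher and 2 lower, against 6.46% and 7.08% of all genes tested. Their median log2 fold change was -0.39, next to 0.01 for all genes tested. ZBTB38, a reader of methylated DNA, had 19 and 31 reads in RAME against 390 and 135 in DMSO (log2 fold change -2.75, edgeR adjusted p = 0.0123). Its DMSO libraries stood apart, at 163 and 51.7 CPM. Of all 320 genes called lower, 113 had DMSO 1 more than 2-fold above DMSO 2, and 1 had the reverse. Over the 4517 genes tested these counts were 581 and 224, and among the 7 members called lower 0 and 0. ZBTB2 had 26 and 24 reads in RAME against 110 and 184 in DMSO (log2 fold change -1.84, edgeR adjusted p = 0.021). Of the 20 ZSCAN and 7 ZKSCAN rows 0 had enough reads to be tested, and of 26 ZFP rows 1 was tested and did not pass.

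The promoters of ZNF189 and ZNF664, the tested members with the highest and the lowest fold change, are shown to give the sequence around their starts. Each holds 250 bases before and 50 after the first listed RefSeq start (GRCh38.p14), at chr9:101398601-101398900 for ZNF189 and chr12:123972965-123973264 for ZNF664, both on the plus strand. Capitals mark matches on either strand of the CCAAT box, the GC box (GGGCGG), an ETS-type motif (CCGGAAG), the cyclic AMP response element (TGACGTCA) and the ZNF143-type motif (ACTACAA). All were chosen after the results were seen.
ZNF189: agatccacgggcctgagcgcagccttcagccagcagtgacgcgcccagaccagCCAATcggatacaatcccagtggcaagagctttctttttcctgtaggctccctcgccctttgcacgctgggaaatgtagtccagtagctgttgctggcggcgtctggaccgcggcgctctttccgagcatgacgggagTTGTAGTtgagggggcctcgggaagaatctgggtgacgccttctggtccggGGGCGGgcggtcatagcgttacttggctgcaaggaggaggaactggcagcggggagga
ZNF664: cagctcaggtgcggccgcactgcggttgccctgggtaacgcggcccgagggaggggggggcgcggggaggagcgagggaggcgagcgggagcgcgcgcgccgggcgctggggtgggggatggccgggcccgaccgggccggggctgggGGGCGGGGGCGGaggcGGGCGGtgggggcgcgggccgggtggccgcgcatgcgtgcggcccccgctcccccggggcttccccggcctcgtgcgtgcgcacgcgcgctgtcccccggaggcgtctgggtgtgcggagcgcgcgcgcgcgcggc
The ZNF189 window (61.7% G and C) held 1 CCAAT box, 1 GC box and 1 ZNF143-type motif, and the ZNF664 window (84.3%) held 3 GC boxes. Of 54 members 43 had a promoter in the RefSeq table. GGGCGG was in 69.8% of these, against 44.6% of all 27305 promoters and 72.8% of the 3368 promoters of tested genes that averaged at least 10 reads. CCAAT was in 27.9% of member promoters, against 35.7% and 37.4%. CCGGAAG was in 32.6%, against 10.7% and 19%, and TGACGTCA in 4.65%, against 1.98% and 3.77%. ACTACAA, added after the ZNF189 window had been seen, was in 4.65%, against 2.95% and 4.07%. A match is a description of letters and says nothing of binding.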

How the data were processed

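RNA was measured in 4 libraries of cells labelled SKOV-3, grouped as RAME or DMSO by the treatment label. The authors made 3′ libraries, aligned single-end reads with Bowtie2 to hg19 (per the submitters' processing notes) and deposited raw read counts per gene. Not given in the sources used here are the aligner version, annotation, counting tool and strand setting. The authors also deposited normalized log2 values by an unnamed normalization, group means, and their own comparison as a fold and p-value for each gene, none of which were used.

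The test on counts was edgeR 4.0.16 under R 4.3.3 (filterByExpr with 10 and 15 reads, TMM, robust quasi-likelihood fit, Benjamini-Hochberg adjustment over 4517 genes, biological coefficient of variation 29.9%) in place of the study's own test on normalized values, which was not made for counts. Standard errors were taken as the log2 fold change over the square root of F. A count of 0 allows up to 3 reads, which is 2.16 and 1.73 CPM in the RAME libraries and 1.25 and 1.15 CPM in the DMSO libraries. Members, role lists, motifs and printed sequences were chosen with earlier results of these data known. Members named were those called, the 5 with the highest mean CPM, the 3 with the highest mean CPM in each role list, and those on either side of the mean of 10 reads. Of other lists called genes were named, and TRIM28, SETDB1, ZNF706, ZNF219 and ZNF746 were named after their values were seen. Fingers were counted in translated GENCODE 29 coding sequences by the pattern of 2 cysteines and 2 histidines, in place of RefSeq proteins. Rows within 5 places with counts within 10% plus 1 read were taken as sharing reads. Scripts were tested on simulated data. Alternatives were DESeq2 1.42.0, limma-voom (limma 3.58.1), other scalings, no filter, a mean of 20 reads, thinned libraries, a replicate block and leaving out each library. A crossed pairing and the removal of rows sharing reads were added after the data were seen.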

Additional observations from a re-analysis of the deposited data

How the results depend on the processing

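Depth limits the members under about 20 reads, and 2 libraries a group leave single calls to the shared spread. Of 10 members called, the count was 9 (2 higher, 7 lower) with RLE factors or library size only, 11 with upper quartile scaling or DESeq2, 8 with limma-voom, 12 without the filter and 10 in thinned libraries. It was 9 of the 39 members averaging at least 20 reads and 9 without the row that shares reads. Leaving out 1 library each gave 4 to 17. With a replicate block 7 members were called (2 higher, 5 lower), and ZNF281 (log2 fold change -1.33), ZNF143 (-1.81) and ZNF318 (1.57) lost their call. Same-numbered libraries deviated in opposite directions (correlation -0.335 over all genes, -0.288 over members). The labels name no pairing, and whether any libraries were paired was not tested. A crossed pairing block, chosen after seeing the data, called 20 (7 higher, 13 lower). Of all genes tested, the crossed block called 39.6% and the replicate block 9.67%, beside 13.5% in the main fit. Of 272 values of single genes under an alternative, 228 kept direction and call, 20 lost the call, 2 gained it (both ZNF106, without DMSO 2 and with the crossed block) and 22 changed sign. The sign changed for members not called. With library size only, ZNF148 gave -0.060 and ZNF451 -0.062, without the filter -0.013 and -0.015, and ZNF451 gave -0.23 in thinned libraries. With upper quartile scaling, which shifted the median of all genes to 0.12, ZNF644 gave 0.029, ZNF384 0.044 and ZNF534 0.025. Without the filter that median was 0.18. ZNF534 gave 0.80 with limma-voom, 0.46 with the replicate block and 0.31 with the crossed block. Leaving out 1 library gave -0.13 to 0.20 for ZNF148, -1.22 to 0.16 for ZNF367, -0.28 to 0.14 for ZNF644, -0.43 to 0.31 for ZNF384, -0.067 to 0.13 for ZNF451 and -0.97 to 2.65 for ZNF534. The cause of these changes was not tested.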
